A study of Homo sapiens with 8 samples.

Results

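PLAU, PLAUR, PLAT, SERPINE2, F3, THBD and TFPI encode proteins of plasminogen activation and of blood coagulation. They were taken by gene symbol as 7 of the 18430 genes in the deposited RNA-seq table. All 7 passed the filter on low counts and are therefore among the 17445 genes tested. The question was how these genes differed in human corneal epithelial cells that met an air-liquid interface, the study's model of evaporative dry eye, with or without the anti-inflammatory drug diclofenac (DCF).

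HCE-T, an immortalized human corneal epithelial cell line, was grown for 7 days as a barrier in the upper channel of a microfluidic device and then kept for 24 h in 1 of 4 conditions, with 2 independent samples each. AL_DCF cells received repeated pulses of air and liquid (the AL stimulus) with 50 µM DCF in the upper channel, AL cells received the stimulus without the drug, ST_DCF cells stayed static with 50 µM DCF, and ST cells stayed static without it. Cells of every condition came from the same growth medium with serum, insulin, epithelial growth factor and dimethyl sulfoxide, and the lower channel was static throughout. The model is 1 immortalized line with no stroma, nerve or blood, and only transcripts were measured.

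Urokinase (PLAU) and tissue plasminogen activator (PLAT) are secreted proteases that cut plasminogen to plasmin, which dissolves fibrin and helps to degrade matrix. The urokinase receptor (PLAUR) holds urokinase at the cell surface, and protease nexin-1 (SERPINE2) inhibits both activators as well as thrombin. Tissue factor (F3) is the membrane protein that starts clotting, tissue factor pathway inhibitor (TFPI) blocks that start, and thrombomodulin (THBD) is a surface receptor that turns thrombin towards activation of the anticoagulant protein C. In the cornea, plasmin formation at the surface is known as a part of epithelial migration during wound closure.

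In RefSeq gene models of GRCh38.p14, PLAU lies at chr10:73908832-73917494, PLAUR at chr19:43646095-43670169, SERPINE2 at chr2:223975045-224039286, F3 at chr1:94529173-94541759, THBD at chr20:23045633-23049672 and TFPI at chr2:187464230-187554435. RefSeq promoter windows, running from 250 bases before to 50 bases after a start site, were searched for 5 of the 7 genes. PLAT and THBD were not part of that search. The windows of F3, PLAUR and PLAU are shown because these 3 genes were lower together under the AL stimulus. Capitals mark every match to the motifs searched on both strands, which were AP-1 (TGACTCA), CRE (TGACGTCA), EGR1 (GCGTGGGCG and GCGGGGGCG), SP1 (GGGCGG), the TATA box (TATAAA) and the TEAD site (GGAATG). F3 is the minus strand of chr1:94541710-94542009, PLAUR the minus strand of chr19:43670120-43670419, and PLAU the plus strand of chr10:73910882-73911181, the second of its windows by position.
F3: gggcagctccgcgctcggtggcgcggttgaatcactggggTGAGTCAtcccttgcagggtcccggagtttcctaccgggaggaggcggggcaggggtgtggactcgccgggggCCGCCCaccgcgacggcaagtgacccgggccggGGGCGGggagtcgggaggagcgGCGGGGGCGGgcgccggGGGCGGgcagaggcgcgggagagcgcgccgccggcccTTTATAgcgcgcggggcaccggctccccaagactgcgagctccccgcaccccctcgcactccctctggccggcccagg
PLAUR: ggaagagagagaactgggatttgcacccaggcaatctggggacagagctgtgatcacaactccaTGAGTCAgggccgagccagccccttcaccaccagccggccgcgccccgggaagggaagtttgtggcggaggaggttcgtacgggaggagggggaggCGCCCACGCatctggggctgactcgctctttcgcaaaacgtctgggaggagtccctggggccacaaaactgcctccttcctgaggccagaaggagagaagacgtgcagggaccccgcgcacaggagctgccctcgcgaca
PLAU: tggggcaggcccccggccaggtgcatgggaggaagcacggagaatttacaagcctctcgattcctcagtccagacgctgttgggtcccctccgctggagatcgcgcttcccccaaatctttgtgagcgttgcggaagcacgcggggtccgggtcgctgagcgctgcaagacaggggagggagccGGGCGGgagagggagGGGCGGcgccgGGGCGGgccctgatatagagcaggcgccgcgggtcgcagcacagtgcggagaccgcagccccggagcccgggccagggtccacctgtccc

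The F3 window held an AP-1 match that begins 210 bases before the start, 4 SP1 matches, a TATA match at 28 bases before it and an EGR1 match (GCGGGGGCG) at 82 bases before it that overlaps an SP1 match. The PLAUR window held an AP-1 match at 186 bases and an EGR1 match (GCGTGGGCG on the reverse strand) at 90 bases before the start. The shown PLAU window held 3 SP1 matches and no AP-1 or EGR1 match, and its other window, at chr10:73910360-73910659, held none of the motifs. The 2 SERPINE2 windows held SP1 matches alone, and the TFPI window held no match. Of all 35116 windows, 4.95% held AP-1, 0.795% held GCGTGGGCG, 5.07% held GCGGGGGCG, 45% held SP1 and 11.5% held TATA. These matches are letters in a window and not measured binding.

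Per unit of transcript length, F3 was the most abundant of the 7 genes, with a mean of 160 TPM (transcripts scaled for length and library, as deposited) over the 8 libraries, a level above 94% of the genes in the table. PLAU followed with 134 TPM, PLAUR with 119 TPM, SERPINE2 with 73.5 TPM and PLAT with 63.7 TPM. THBD and TFPI, which are best known from endothelium, averaged 6.81 and 5.55 TPM, levels above 41.6% and 38.8% of genes. Under AL, PLAU stood at 107 ± 7.52, SERPINE2 at 95.6 ± 4.82, F3 at 94.7 ± 2.47 and PLAUR at 77.1 ± 2.97 TPM (SD, n = 2), with SERPINE2 and F3 closer together than their spread. In ST the order was F3 at 216 ± 3.15, PLAU at 173 ± 6.90, PLAUR at 147 ± 8.41, PLAT at 54.8 ± 1.15 and SERPINE2 at 53.9 ± 3.69 TPM, of which PLAT and SERPINE2 did not differ beyond their spread.

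Under the AL stimulus the initiator of clotting, urokinase, its receptor and thrombomodulin were all lower, and the inhibitor protease nexin-1 was higher. Levels of 1 gene across libraries are given as CPM, the share of a library's counts after TMM scaling. The 4 libraries with the stimulus (AL_DCF and AL) did not overlap the 4 static libraries (ST_DCF and ST) for 6 of the 7 genes, 4 of them lower and 2 higher, where 28.3% of all genes tested were apart in either direction. PLAT was the exception. The 7 genes were chosen with earlier results of these data known, so this comparison of shares is a description. The summed level of 5 epithelial marker genes was lower in the same libraries, at 1814 to 2124 CPM in stimulated and 4321 to 4782 CPM in static ones, and its part in these differences was not tested. Since these are bulk samples, fewer cells of a kind and less RNA per cell cannot be told apart.

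**Figure D1:**
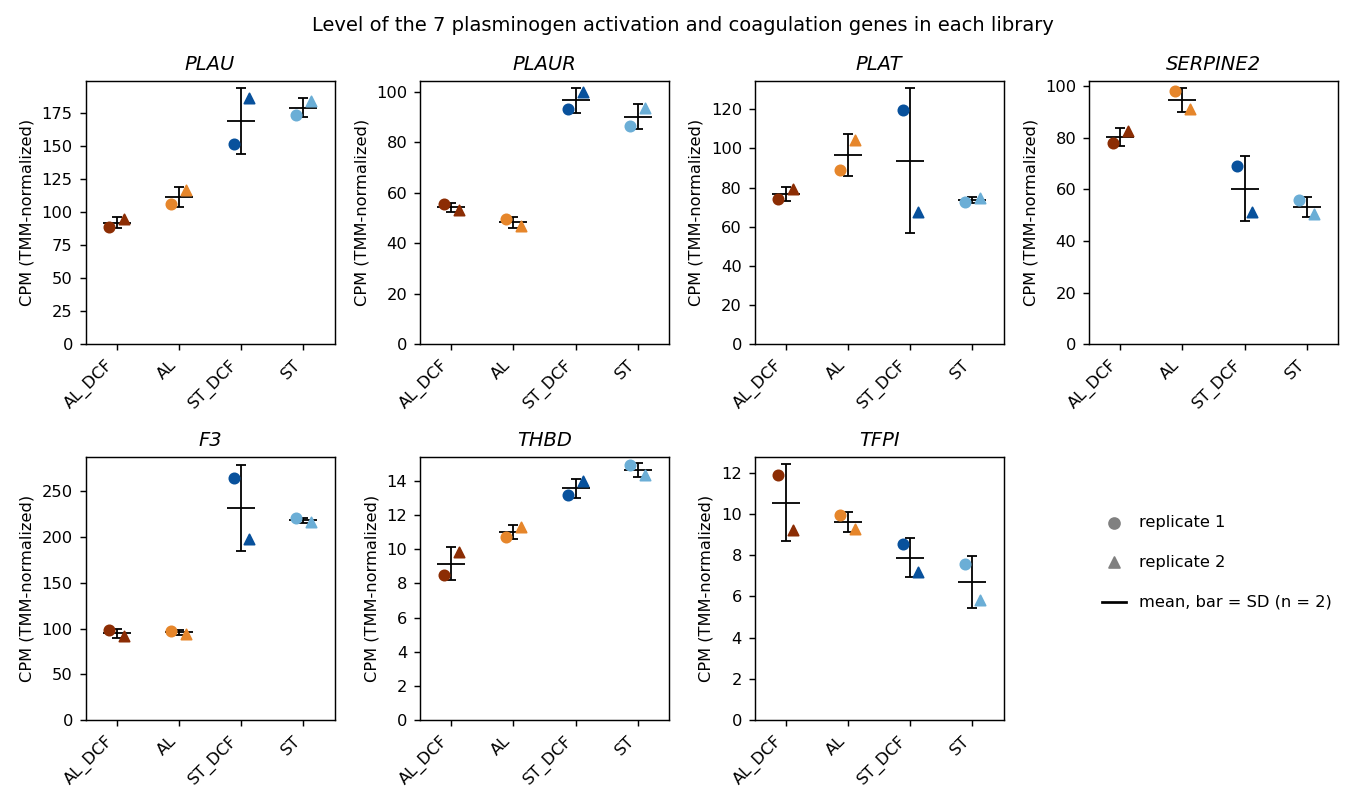
Level of each of the 7 genes in CPM (y axis) in the 2 libraries of each condition (x axis); circles are replicate 1, triangles replicate 2, and the line and bar give the mean and SD. F3 sits between 91.7 and 98.7 CPM in the 4 libraries with the AL stimulus and between 198 and 265 CPM in the 4 static libraries, and the PLAT point of ST_DCF replicate 1 stands at 120 CPM.

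PLAU had 89.2 and 95.3 CPM in AL_DCF, 106 and 117 CPM in AL, 152 and 187 CPM in ST_DCF, and 174 and 184 CPM in ST. Both stimulated conditions lay below both static ones, with no overlap. By the quasi-likelihood test of edgeR, adjusted by the Benjamini-Hochberg method across the 17445 genes, the log2 fold change of AL against ST was -0.68 ± 0.10 (SE; adjusted p = 0.000853), that is 0.623-fold. With the drug present in both arms, AL_DCF against ST_DCF gave -0.87 ± 0.10 (adjusted p = 0.00014), and AL_DCF against ST gave -0.96 ± 0.10 (adjusted p = 8.09e-05). PLAU had 3984 to 6353 reads per library, against 47 to 75 reads for the non-coding RNA gene C10orf55 that overlaps it.

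PLAT, the other activator, lies at chr8:42174718-42207565. It had 74.3 and 79.2 CPM in AL_DCF, 89.2 and 104 CPM in AL, 120 and 67.5 CPM in ST_DCF, and 72.6 and 74.7 CPM in ST. The AL libraries lay above the ST libraries, but the ST_DCF pair spanned the whole range of the other conditions. The log2 fold change for AL against ST was 0.39 ± 0.19 and did not pass the test (adjusted p = 0.191, 95% interval -0.029 to 0.82). It passed when either ST_DCF library was left out of the shared fit (adjusted p = 0.00934 without replicate 1 and 0.00951 without replicate 2) or when the AL and ST libraries were fitted alone (0.000916), with the adjusted p between 0.000916 and 0.545 over 18 alternatives. AL_DCF against ST was 0.061 ± 0.19 (adjusted p = 0.863).

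PLAUR had 55.5 and 53.0 CPM in AL_DCF, 49.8 and 46.8 CPM in AL, 93.1 and 100.05 CPM in ST_DCF, and 86.6 and 93.7 CPM in ST. The pairs were tight in every condition, and every stimulated library lay below every static one. The log2 fold change was -0.90 ± 0.082 for AL against ST (adjusted p = 2.53e-05) and -0.83 ± 0.082 for AL_DCF against ST_DCF (adjusted p = 3.66e-05). For AL_DCF against ST it was -0.73 ± 0.082 (adjusted p = 0.000104). Urokinase and its receptor were thus lower in the same libraries, and the ratio of PLAU to PLAUR in TPM was 1.00 ± 0.11 in AL_DCF, 1.39 ± 0.15 in AL, 1.03 ± 0.10 in ST_DCF and 1.18 ± 0.020 in ST (SD, n = 2).

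SERPINE2 ran the other way, with 77.9 and 82.6 CPM in AL_DCF, 97.9 and 91.1 CPM in AL, 69.2 and 51.4 CPM in ST_DCF, and 55.8 and 50.5 CPM in ST. All 4 stimulated libraries were above all 4 static ones. AL against ST was 0.83 ± 0.12 (adjusted p = 0.000699), a 1.78-fold difference, and AL_DCF against ST was 0.59 ± 0.12 (adjusted p = 0.00586). AL_DCF against ST_DCF was smaller, at 0.41 ± 0.12 (adjusted p = 0.0319), and that call ended in 10 of 18 alternatives (adjusted p from 0.00233 to 0.154). The libraries whose omission ended it were AL_DCF replicate 2 (0.124), AL replicate 1 (0.0514), AL replicate 2 (0.051), ST_DCF replicate 2 (0.154, with a log2 fold change of 0.22) and ST replicate 1 (0.0503), and for AL_DCF against ST it was ST replicate 2 (0.0743).

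Within each library, urokinase was also set against SERPINE2, which is not its only inhibitor, and against the other activator. The ratio of PLAU to SERPINE2 in TPM was 1.09 and 1.10 in AL_DCF, 1.03 and 1.22 in AL, 2.08 and 3.46 in ST_DCF, and 2.98 and 3.48 in ST. The ratio of PLAU to PLAT was 1.56 and 1.57 in AL_DCF, 1.55 and 1.46 in AL, 1.65 and 3.61 in ST_DCF, and 3.13 and 3.21 in ST. The first ratio separated the stimulated from the static libraries, whereas in the second ST_DCF replicate 1 lay near the stimulated ones. These ratios are descriptions with no test, and they compare transcripts, not active protease.

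F3 showed the largest change of the 7 genes, with 98.7 and 91.7 CPM in AL_DCF, 97.9 and 94.4 CPM in AL, 265 and 198 CPM in ST_DCF, and 220 and 216 CPM in ST. The 4 stimulated libraries were tightly grouped, and all lay below the static ones, whose ST_DCF pair was spread more widely than the ST pair. AL against ST was -1.18 ± 0.12 (adjusted p = 3.9e-05), or 0.440-fold. AL_DCF against ST_DCF was -1.28 ± 0.12 (adjusted p = 2.02e-05) and AL_DCF against ST was -1.20 ± 0.12 (adjusted p = 3.88e-05). F3 was the only member that passed in every alternative of these 3 comparisons, including the study's criterion of a 2-fold difference.

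TFPI, the inhibitor of the F3 complex, had 11.9 and 9.21 CPM in AL_DCF, 9.95 and 9.28 CPM in AL, 8.54 and 7.21 CPM in ST_DCF, and 7.58 and 5.82 CPM in ST, from 191 to 530 reads per library, against 4 to 11 reads for CALCRL-AS1, which overlaps it. Its stimulated libraries lay above its static ones, by margins near the gaps between replicates. The log2 fold change passed for AL_DCF against ST (0.65 ± 0.18, adjusted p = 0.0266) and not for AL against ST (0.52 ± 0.18, adjusted p = 0.0687) or AL_DCF against ST_DCF (0.42 ± 0.18, adjusted p = 0.118). The call for AL_DCF against ST ended without AL_DCF replicate 1 (0.46, adjusted p = 0.147) and without ST replicate 2 (0.48, adjusted p = 0.229), within a range of 0.0042 to 0.229 over 19 alternatives. The difference for AL against ST passed in 4 of 18 alternatives, among them the fit without AL_DCF replicate 2 (0.52, adjusted p = 0.0465), in a range of 0.014 to 0.396.

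The ratio of F3 to TFPI in TPM brought the pair together. It was 12.8 and 15.0 in AL_DCF, 15.3 and 16.4 in AL, 47.3 and 40.8 in ST_DCF, and 46.6 and 62.4 in ST, with no overlap between stimulated and static libraries. As a description with no test, the initiator remained in excess of its inhibitor at the transcript level in all 8 libraries, and the excess was smaller in the 4 with the stimulus.

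**Figure D2:**
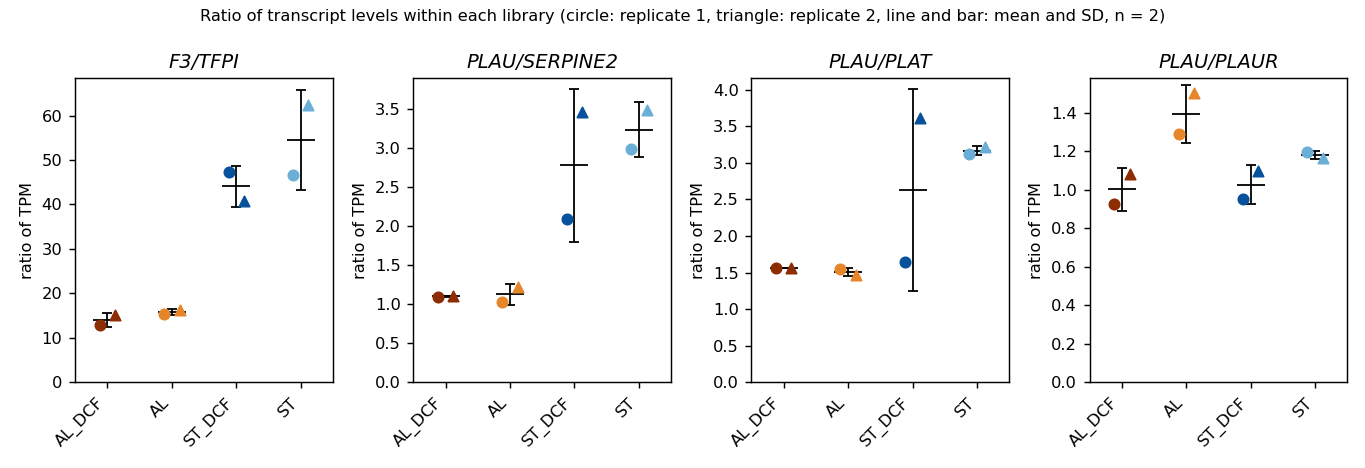
Ratios of TPM within each library (y axis) for F3 to TFPI, PLAU to SERPINE2, PLAU to PLAT and PLAU to PLAUR in the 4 conditions (x axis); circles are replicate 1, triangles replicate 2, lines and bars the mean and SD. F3 to TFPI lies between 12.8 and 16.4 in the stimulated libraries and between 40.8 and 62.4 in the static ones.

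THBD was low in every library, with 8.47 and 9.83 CPM in AL_DCF, 10.7 and 11.3 CPM in AL, 13.2 and 13.97 CPM in ST_DCF, and 14.9 and 14.3 CPM in ST. All stimulated libraries were below all static ones. The log2 fold change was -0.57 ± 0.13 for AL_DCF against ST_DCF (adjusted p = 0.00824) and -0.68 ± 0.13 for AL_DCF against ST (adjusted p = 0.00336). For AL against ST it was -0.41 ± 0.12 (adjusted p = 0.0407), a call that ended in 10 of 18 alternatives (adjusted p from 0.00789 to 0.219). It ended without AL replicate 1 (0.219) or 2 (0.146) and without ST replicate 1 (0.209) or 2 (0.142). The F3 to THBD ratio in TPM was 18.5 ± 2.90 in AL_DCF, 15.5 ± 0.96 in AL, 30.3 ± 7.34 in ST_DCF and 26.3 ± 0.41 in ST (SD, n = 2; no test).

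Counted over the 7 genes, AL against ST had 1 higher and 4 lower calls, where 7.63% of all genes tested were called higher and 10.3% lower. The median log2 fold change was -0.41 over the 7 genes and -0.0003 over all genes. AL_DCF against ST had 2 higher and 4 lower calls, against 8.49% and 9.83% of all genes, and AL_DCF against ST_DCF had 1 and 4 calls, against 9.38% and 11.4%. AL against ST and AL_DCF against ST share their ST libraries and are not separate evidence. Because the 7 genes were chosen with earlier results of these data known, the counts and the median are descriptions. With 2 libraries per group an exact permutation test of a single gene cannot give a p below 0.333, so the calls rest on the spread that edgeR shares across genes and conditions.

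DCF was not accompanied by a called change in any of the 7 genes. ST_DCF against ST gave 0 calls of 7 in edgeR's test, where 0.00573% of all genes were called. At an unadjusted p under 0.05 there were also 0 of 7, against 10% of all genes, and with DESeq2 and with limma 0 were called. AL_DCF against AL gave 0 of 7 as well, where 0.355% of all genes were called, and DESeq2 and limma also called 0. PLAU alone of the 7 had an unadjusted p under 0.05 there, as had 12.6% of all genes. Its log2 fold change was -0.27 ± 0.10 (95% interval -0.50 to -0.049, adjusted p = 0.308). F3 differed least in that comparison, at -0.014, with a 95% interval of -0.27 to 0.24. An interval of this width does not show that the levels are equal.

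The interaction, the DCF effect under the AL stimulus minus the DCF effect in static culture, was called for 0 of the 7 genes, where 0.0344% of all genes were called. PLAT had the widest value at -0.68 ± 0.27 (adjusted p = 0.398, unadjusted 0.0285), followed by SERPINE2 at -0.42 ± 0.17 (adjusted p = 0.403, unadjusted 0.0316). DESeq2 and limma also called 0. An unadjusted p under 0.05 was reached by 28.6% of the 7 genes, against 11.3% of all genes. The PLAT and SERPINE2 values both turn on the ST_DCF pair. Without ST_DCF replicate 2 the PLAT interaction was -1.04 (adjusted p = 0.00691), and over the 16 alternatives its adjusted p ran up to 0.86.

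ST_DCF replicate 1 stood apart from its partner for PLAT, SERPINE2, F3 and PLAU. The gap between the ST_DCF replicates was 0.83 on the log2 scale for PLAT, 0.43 for SERPINE2, 0.42 for F3 and 0.30 for PLAU. The median gap over all genes was 0.17 in that condition and also 0.17 in AL_DCF. In ST the same 4 gaps were 0.042, 0.14, 0.027 and 0.082. The ST_DCF gap was 0.10 for PLAUR, 0.084 for THBD and 0.25 for TFPI. TFPI had wider gaps in AL_DCF (0.37) and in ST (0.38). Without ST_DCF replicate 1, ST_DCF against ST changed sign for PLAU (0.064), PLAT (-0.12), SERPINE2 (-0.046) and F3 (-0.14), none of them called, and PLAT in AL_DCF against ST_DCF became 0.18. Without ST_DCF replicate 2, PLAT was called in ST_DCF against ST (0.70, adjusted p = 0.00998) and in AL_DCF against ST_DCF (-0.64, adjusted p = 0.00202), in ranges of 0.00998 to 0.995 and 0.00202 to 0.557 over 18 alternatives each. The labels give no reason to prefer either library.

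**Figure D3:**
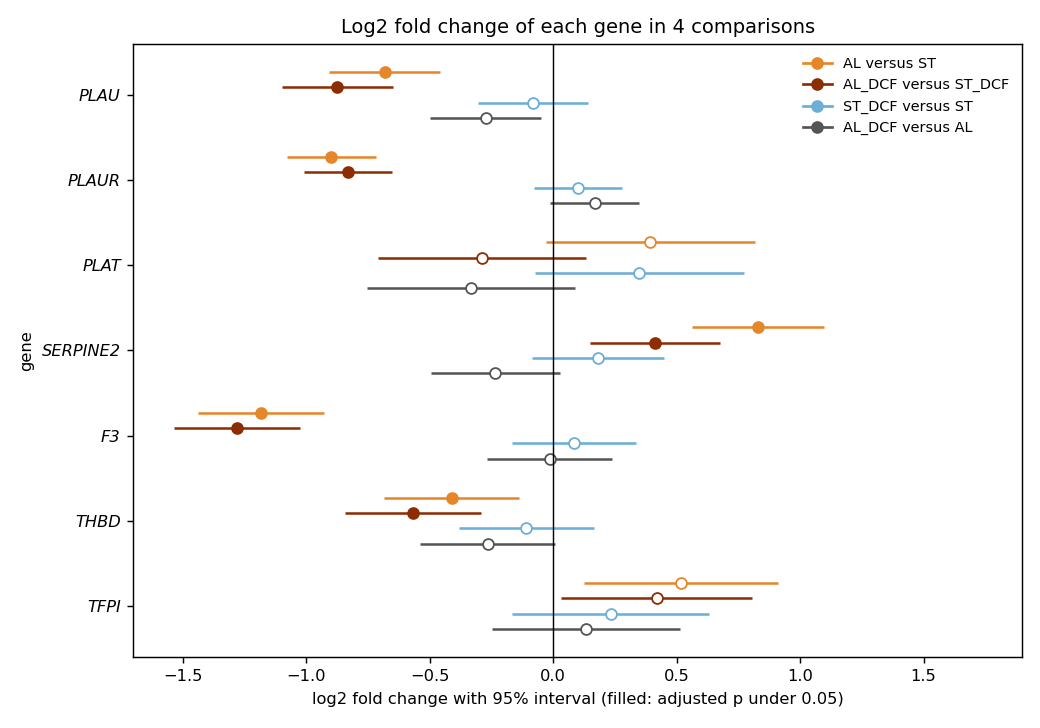
Log2 fold change (x axis) of each gene (y axis) in 4 comparisons, with 95% intervals from edgeR's quasi-likelihood test; filled points passed an adjusted p of 0.05. F3 lies at -1.18 for AL against ST and at -1.28 for AL_DCF against ST_DCF, while no point of either DCF comparison is filled.

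The rest of the pathway was read from a list of 59 other genes, of which 34 were in the table and all 34 were tested. AL against ST had 9 higher and 5 lower (7.63% and 10.3% of all genes), AL_DCF against ST 8 and 5 (8.49% and 9.83% of all genes), and AL_DCF against ST_DCF 8 and 5 (9.38% and 11.4% of all genes). The groups within the list are small, and their counts are to be read against the same shares. The median log2 fold changes of the list in these comparisons were 0.079, 0.073 and 0.053. Leaving out a library lowered the count for AL against ST from 14 in all to 9 without AL replicate 1, to 8 without AL replicate 2 and to 9 without either ST replicate, and the count for AL_DCF against ST from 13 to 8 without ST replicate 2. Not analysed here were plasminogen itself (PLG), HRG, A2M, CPB2, F11, KLKB1, KNG1, F2, F5, F7, F9, F10, F13A1, F13B, FGA, FGB, FGG, FGL2, SERPINC1, SERPIND1, SERPINA10, PROC, PROZ, F2RL2 and F2RL3, many of which are liver products.

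Among 11 genes for plasminogen receptors and binding proteins, 5 were higher and 1 lower in each of the 3 comparisons. The 5 were not the same throughout. S100A10 and VTN were among them for AL against ST alone, and LRP1 and IGF2R for AL_DCF against ST and against ST_DCF alone. Enolase 1 (ENO1), which binds plasminogen at the cell surface, was 0.41 for AL against ST (adjusted p = 0.00222) and 0.32 for AL_DCF against ST_DCF (adjusted p = 0.00936). MRC2, a collagen receptor that associates with the urokinase receptor, was 0.55 (adjusted p = 0.00084) and 0.33 (adjusted p = 0.0166). Integrin beta 3 (ITGB3), a subunit of the vitronectin receptor, had 16.4 and 15.3 CPM in AL_DCF, 15.1 and 16.2 CPM in AL, 9.90 and 6.15 CPM in ST_DCF, and 7.10 and 7.80 CPM in ST. That was 1.07 ± 0.19 for AL against ST (adjusted p = 0.00224), while its partner ITGAV was lower at -0.41 (adjusted p = 0.0185). Vitronectin (VTN) was 0.94 ± 0.26 (adjusted p = 0.029) for AL against ST and did not pass for AL_DCF against ST_DCF (0.63, adjusted p = 0.113) or against ST (0.79, adjusted p = 0.0576). For AL_DCF against ST_DCF, the endocytic receptor LRP1, which clears complexes of protease and inhibitor, was 0.60 (adjusted p = 0.000265) and IGF2R was 0.30 (adjusted p = 0.0243). Neither passed for AL against ST, where LRP1 was 0.19 (adjusted p = 0.118) and IGF2R 0.070 (adjusted p = 0.608).

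Among the inhibitors, SERPINB6, an intracellular serpin, had 94.0 and 106 CPM in AL_DCF, 117 and 114 CPM in AL, 131 and 139 CPM in ST_DCF, and 127 and 128 CPM in ST. All 4 stimulated libraries lay below all 4 static ones, the opposite side from SERPINE2. The log2 fold change was -0.43 ± 0.082 for AL_DCF against ST_DCF (adjusted p = 0.00335) and -0.35 ± 0.082 for AL_DCF against ST (adjusted p = 0.0115), and it did not pass for AL against ST.

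The protease-activated receptors moved in opposite directions. The thrombin receptor F2R had 42.7 and 46.2 CPM in AL_DCF, 54.1 and 53.0 CPM in AL, 29.9 and 26.6 CPM in ST_DCF, and 27.0 and 27.5 CPM in ST, which was 0.97 ± 0.092 for AL against ST (adjusted p = 2.93e-05) and 0.66 ± 0.091 for AL_DCF against ST_DCF (adjusted p = 0.000444). F2RL1, which trypsin-like proteases and the complex of tissue factor with factor VIIa can activate, had 95.4 and 90.2 CPM in AL_DCF, 99.98 and 97.3 CPM in AL, 242 and 175 CPM in ST_DCF, and 180 and 174 CPM in ST. It was -0.84 ± 0.12 for AL against ST (adjusted p = 0.000744) and -1.17 ± 0.12 for AL_DCF against ST_DCF (adjusted p = 6.56e-05). F2RL1 was thus low in the libraries in which F3 was low, and ST_DCF replicate 1 was high for both.

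Of 5 anticoagulant genes, 2 were higher and 1 lower in the same comparisons. TFPI2, a matrix-associated inhibitor of plasmin and other proteases related to TFPI, was -0.81 ± 0.081 for AL against ST (adjusted p = 4.42e-05) and -0.80 ± 0.081 for AL_DCF against ST_DCF (adjusted p = 4.28e-05). That was the opposite side from TFPI, which did not pass in either comparison. Protein S (PROS1), a cofactor of activated protein C and of TFPI, was 0.60 ± 0.19 (adjusted p = 0.0446) and 0.77 ± 0.19 (adjusted p = 0.0138). Annexin A5 (ANXA5), which covers phosphatidylserine on membranes, was 0.54 ± 0.087 (adjusted p = 0.0013) and 0.47 ± 0.087 (adjusted p = 0.0031). In the vitamin K and secretion group, VKORC1 was 0.27 (adjusted p = 0.0466) and LMAN1 -0.33 (adjusted p = 0.0457) for AL against ST. For AL_DCF against ST_DCF, 0 of 6 were called by edgeR, and 3 had an unadjusted p under 0.05, as had 33.6% of all genes.

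DCF in static culture gave 0 calls of these 34 genes in edgeR's test (0 with DESeq2), with 8.82% of them at an unadjusted p under 0.05 against 10% of all genes. The interaction gave 0 calls as well (1 with DESeq2), with 17.6% of them at an unadjusted p under 0.05 against 11.3% of all genes. For AL_DCF against AL, 32.4% of them had an unadjusted p under 0.05 against 12.6% of all genes. In edgeR's test 1 of the 34 genes was called there, where 0.355% of all genes were called. S100A10, a surface subunit that binds plasminogen and its activators, had 135 and 162 CPM in AL_DCF and 222 and 217 CPM in AL, a log2 fold change of -0.56 ± 0.090 (adjusted p = 0.0263). AL against ST was 0.50 ± 0.090 (adjusted p = 0.00285), with 154 and 156 CPM in ST. That call of AL_DCF against AL ended in several alternatives, and the count of called genes ran from 0 to 2 when each library was left out in turn.

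**Figure D4:**
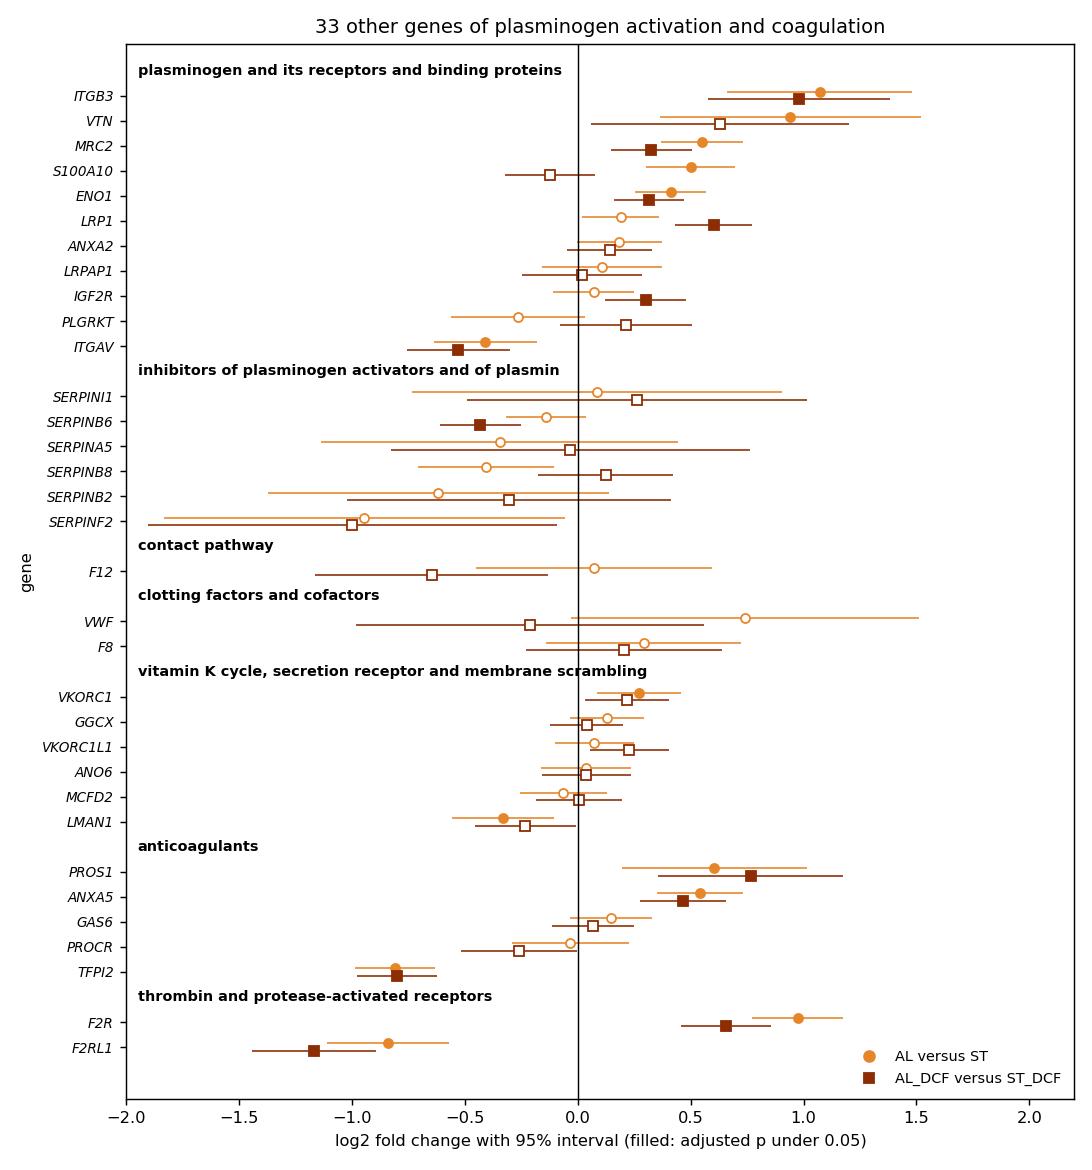
Log2 fold change (x axis) of 33 other genes (y axis, by group) for AL against ST and for AL_DCF against ST_DCF, with 95% intervals; filled points passed an adjusted p of 0.05. F2R lies at 0.97 and 0.66, and F2RL1 at -0.84 and -1.17, on opposite sides of 0.

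Over the 8 libraries, the genes most like each member were found by Pearson's r of log2 CPM among 13381 genes, as a description. All points share the split between stimulated and static libraries, which gives many genes a high r. CALB2 (r = 0.998), FERMT1 (r = 0.997) and LOC105373985 (r = 0.997) were most like F3. FAR2 (r = 0.997), HSH2D (r = 0.996) and MEAK7 (r = 0.994) were most like PLAUR, and LYPLA2 (r = 0.995), FPGS (r = 0.993) and HCG4 (r = 0.992) most like PLAU. TKFC (r = 0.994) and RCC2 (r = 0.991) were among those most like THBD. SGK1, ADAMTS10 and CDH13 led for SERPINE2 at 0.983 to 0.984, and DPF3, SLC2A13 and NFS1 for TFPI at 0.971 to 0.983. PLAT followed another pattern, led by WFDC21P (r = 0.970), MIR31HG (r = 0.960) and IGF2 (r = 0.941).

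The labelled cell type was checked against marker genes, and the epithelial markers moved with the stimulus. Beside the lower sum given above, all 5 epithelial markers were lower for AL against ST, E-cadherin (CDH1) by -2.08 on the log2 scale. Of the 10 corneal epithelial markers, 8 were in the table (KRT12 and KRT3 were not analysed here), with sums of 334 to 367 CPM in stimulated and 736 to 968 CPM in static libraries. Their part in the lower F3, PLAU, PLAUR and THBD was not tested either. For AL against ST, 3 of these 8 were lower and 2 (PAX6 and CLU) higher.

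Markers of other cell types had lower sums than the epithelial ones, and some differed for AL against ST. Of 9 endothelial markers, 8 were in the table, at 10.4 to 14.5 CPM in sum in stimulated and 16.7 to 29.8 CPM in static libraries. For AL against ST, 1 was lower (CDH5, -1.20 on the log2 scale, adjusted p = 0.00932) and 1 higher (PECAM1, 2.14, adjusted p = 0.00282). PECAM1 had 1.14 and 1.62 CPM in AL and 0.287 and 0.335 CPM in ST. CDH5 had 3.16 and 1.95 CPM in AL_DCF, 2.37 and 3.26 CPM in AL, 19.5 and 12.6 CPM in ST_DCF, and 6.69 and 6.25 CPM in ST. Of 8 stromal and mural markers, 5 were in the table, at 23.9 to 79.0 CPM in sum in stimulated and 18.9 to 26.0 CPM in static libraries. For AL against ST, 3 of the 5 were higher. PDGFRB had 6.55 and 7.49 CPM in AL and 2.84 and 2.90 CPM in ST. COL3A1 had 3.29 and 21.7 CPM in AL and 0.172 and 0.366 CPM in ST, and COL1A2 had 0.335 and 6.07 CPM in AL and 0.287 and 0.366 CPM in ST, so that AL replicate 2 was high for both collagens. The members' replicate gaps in AL ran from 0.054 for F3 to 0.22 for PLAT on the log2 scale. Of 6 markers of myoblasts, which the submitters' extraction note names, only DES was in the table, at 1.36 and 1.33 CPM in AL and 0.603 and 0.457 CPM in ST (log2 fold change 1.34, adjusted p = 0.0205). Of 6 leukocyte and platelet markers, 3 were in the table, at 43.3 to 71.3 CPM in sum in stimulated and 57.9 to 73.5 CPM in static libraries. CD68 made up most of that sum, with 41.4 and 38.8 CPM in AL and 54.5 and 56.1 CPM in ST. Of these 3, CD68 alone was called for AL against ST, lower at -0.46 (adjusted p = 0.00309). For AL_DCF against ST_DCF, CDH5 was lower (-2.65, adjusted p = 4.28e-05) and PDGFRB higher (0.71, adjusted p = 0.0401). PECAM1 (adjusted p = 0.582), COL3A1 (0.139), COL1A2 (0.409), DES (0.251) and CD68 (0.581) did not pass there. The part of these cell types in the members' differences was not tested.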

How the data were processed

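RNA was sequenced from 8 samples of HCE-T cells, 2 per condition. Per the study's methods and the submitters' processing notes, the tools the authors named were FastQC 0.11.7 (read quality), Trimmomatic 0.38 (trimming), Bowtie2 2.3.5.1 and HISAT2 2.1.0 (alignment to GRCh38) and StringTie 2.1.3b (read counts per gene). The library kit was stranded, and the strand setting of the counting is not given in the sources used here, so overlapping antisense RNA may not be separated. The deposited raw counts per gene were the input to every test. The deposited FPKM values entered an alternative with limma, and the deposited TPM values were used for levels and ratios between genes. The table also holds log2 values made by the authors after TMM scaling, and their own comparisons (signed fold changes, stored as a score, with p-values), which were not used.

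Total counts ran from 32880479 to 46369412 per library. Counting error weighs more on THBD and TFPI, with 191 to 530 reads per library, than on the other members. Genes were filtered with filterByExpr, scaled by TMM and tested with edgeR 4.0.16 (R 4.3.3) in a quasi-likelihood fit of all 8 libraries with 4 conditions, with Benjamini-Hochberg adjustment over 17445 genes and a threshold of 0.05. CPM are TMM-scaled. The study used edgeR's exact test by pair with a 2-fold limit, tried here as an alternative, as were DESeq2 1.42.0, limma 3.58.1 on log2(FPKM + 1) and log2(FPKM + 0.1), other scaling, other filters, a replicate block and each library left out. The edgeR test was also run on simulated counts drawn from its own fit, which cannot show how well that fit holds for these libraries. The 7 genes, the pathway list and the marker lists were chosen with earlier results of these data known. Named were all 7 genes, the pathway genes called in any comparison, those not in the table, and the 3 genes most like each member by Pearson's r. Some genes that this rule takes are not reported here. Genes the text singles out beyond these, such as CDH1, PECAM1 and DES, come from the marker lists. Promoter sequences and gene positions are from RefSeq (GRCh38.p14). Of the 7 genes, promoter sequence is shown for 3.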

Additional observations from a re-analysis of the deposited data

Results flagged for a closer look

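Of the 7 members and the 34 other pathway genes, 4 had both ST_DCF libraries on one side of both ST libraries and both AL_DCF libraries on the opposite side of both AL libraries, which is 9.76% of them, against 8.84% of all 17445 genes. In each, the interaction term of edgeR's quasi-likelihood test, the DCF effect under AL minus that in static culture, did not pass after Benjamini-Hochberg adjustment. It was -0.62 on the log2 scale for S100A10 (adjusted p = 0.138), with 135 and 162 CPM in AL_DCF against 222 and 217 CPM in AL, and 158 and 165 CPM in ST_DCF against 154 and 156 CPM in ST. It was 0.53 for SERPINB8 (adjusted p = 0.368) and -0.29 for SERPINB6 (adjusted p = 0.398). It was -0.95 for VWF (adjusted p = 0.502), whose highest library held 1.62 CPM.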

How the results depend on the processing

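F3, PLAU and PLAUR kept their direction and their call for AL against ST, AL_DCF against ST and AL_DCF against ST_DCF in every alternative, except that PLAU and PLAUR fell short of the 2-fold limit of the exact test. That criterion left 1 member for each of these comparisons, 1, 2 and 2 pathway genes and 1167, 1141 and 1199 genes in all, with 266 genes for ST_DCF against ST and 0 pathway genes and 335 genes for AL_DCF against AL. THBD was called for AL against ST in 8 of 18 alternatives and SERPINE2 for AL_DCF against ST_DCF in 8 of 18. DESeq2 called 73 genes for ST_DCF against ST (67.1% higher), where edgeR called 1, which was higher. For AL_DCF against AL, DESeq2 called 2 pathway genes and 261 genes (43.3% higher, against 29% of 62 with edgeR). For the interaction, DESeq2 called 1 pathway gene and 149 genes (36.2% higher, against 0% of 6 with edgeR). Without the filter, ST_DCF against ST had 0 genes, AL_DCF against AL 0 pathway genes and 24 genes, and the interaction 3 genes. With limma, ST_DCF against ST and the interaction had 0 genes, and AL_DCF against AL had 0 pathway genes and 31 genes with a pseudocount of 1 or 27 with 0.1. Fitting the compared groups alone gave 5593 genes for AL against ST, 1893 for AL_DCF against ST_DCF, and 0 pathway genes and 30 genes for AL_DCF against AL. Same-numbered libraries did not deviate together (r from -0.10 to 0.10 over 6 pairs of groups, with 17445 genes each). These values show no strong shift shared by number, and they cannot tell whether same-numbered samples were handled together. The replicate block gave 0 genes for ST_DCF against ST, and for AL against ST it ended the THBD call (adjusted p = 0.0531) and made a TFPI call (0.0329). A crossed pairing of AL_DCF and ST, chosen after seeing the data, gave 6 members, 17 pathway genes and 5034 genes. Leaving out each library gave 0 to 1 members, 0 to 1 pathway genes and 0 to 308 genes for ST_DCF against ST. It gave 4 to 6, 8 to 16 and 1392 to 3750 for AL against ST. It gave 4 to 6, 8 to 14 and 1322 to 3857 for AL_DCF against ST. It gave 0 members, 0 to 2 and 10 to 143 for AL_DCF against AL, then 4 to 5, 12 to 15 and 2357 to 3577 for AL_DCF against ST_DCF, and 0 to 1, 0 to 1 and 0 to 189 for the interaction. Signs turned, with no call on the turned side, when single libraries were left out. In ST_DCF against ST the log2 fold changes ran from -0.24 (without ST_DCF replicate 2) to 0.064 (without ST_DCF replicate 1) for PLAU, and, with the same libraries left out, from 0.70 to -0.12 for PLAT, 0.38 to -0.046 for SERPINE2 and 0.28 to -0.14 for F3, and from -0.64 to 0.18 for PLAT in AL_DCF against ST_DCF. In AL_DCF against AL they ran from -0.063 (without AL_DCF replicate 1) to 0.038 (without AL_DCF replicate 2) for F3, with 0.013 without AL replicate 1, and from -0.056 (without AL_DCF replicate 1) to 0.30 (without AL_DCF replicate 2) for TFPI. In the interaction they ran from -0.29 (without ST_DCF replicate 2) to 0.12 (without ST_DCF replicate 1) for F3 and from -0.31 (without ST replicate 1) to 0.078 (without ST replicate 2) for TFPI, with 0.072 without AL_DCF replicate 2 and 0.028 without ST_DCF replicate 1. The cause was not tested. With 2 libraries per condition, differences within the intervals given cannot be shown.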
